A study of Mus musculus with 4 samples.

Results

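The 8 genes described here are Cbl, Cblb, Rnf128, Itch, Nedd4, Ndfip1, Dgka and Dgkz. These genes encode ubiquitin ligases, a ligase adaptor and lipid kinases tied to T cell receptor signalling. They were chosen by name, and every array feature annotated to one of them was used, which gave 16 of 33709 gene features. Expression was measured in CD4+CD25- T lymphocytes from the spleens of C57BL/6 mice after 12 h of culture with antibodies to CD3 and CD28. Mice of the db/db group carry the leptin receptor mutation on both chromosomes, in every tissue, and are known to become obese and diabetic. Mice of the db/+ group carry it on 1 and served as wild type. Each group held 2 samples, and each sample was 1 array of RNA from a pool of 3 mice. The phenotype label of the db/db samples reads leptin-deficient, whereas the series title names the receptor.

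T cells that receive an antigen signal without costimulation can become anergic, that is, unresponsive to later stimulation. Cbl and Cblb are RING-type ubiquitin ligases that mark signalling proteins below the T cell receptor, and Rnf128, known as GRAIL, is a membrane-spanning RING ligase. Itch and Nedd4 are HECT-type ligases, and Ndfip1 is a membrane adaptor that recruits and activates them. Dgka and Dgkz convert diacylglycerol to phosphatidic acid, which ends the activation of RasGRP1 and protein kinase C theta. In resting mouse T cells Dgka transcript is abundant and it falls after stimulation.

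Of the 8 genes, none passed the test over all gene features. Dgka was 3.77-fold higher in db/db and passed only when misread features were left out, and that call was lost with any 1 array left out. Itch, Nedd4, Dgkz and the readable feature of Cbl showed differences between -0.12 and 0.43 on the log2 scale that did not pass any test. The only Cblb feature not taken as misread lay at background and gives no information on the transcript. Rnf128 and Ndfip1 had no feature outside stretches of the arrays that were taken as misread. The comparison asked how loss of the leptin receptor alters expression in stimulated effector T cells.

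Levels are given as log2 intensities after background correction and quantile normalization. A spot was taken as off on an array when its level departed by over 2 log2 units from the middle value of the remaining 3. A misread stretch is a scan line of neighbouring spots with more than 5% off on any array, or a run of 15 spots with at least 3 off. The rule sees differences between genotypes too, so it is not independent of the comparison. Misread stretches took 8242 gene features, or 24.5%, and 7 of the 16 member features. Features of Itch, Nedd4, Dgka and Dgkz all lay outside them, 1 of 3 Cbl features and 1 of 2 Cblb features did, and none of Rnf128 or Ndfip1. Of the 9 features outside, 7 lay above the median of 7.55 over gene features, which served as the background level, and 1 feature each of Cblb and Itch lay below it in both groups. Over the whole array 0.997% of gene features were called by limma at an adjusted p below 0.05, with 0.578% of features higher in db/db and 0.418% lower. Of those outside misread stretches, tested alone, 8.20% were called, 6.69% higher and 1.51% lower. Median scaling instead of quantile normalization turned this balance over all gene features from 195 higher and 141 lower to 126 and 270, and outside misread stretches from 1705 and 384 to 1267 and 655. The median raw intensity ran from 102 to 254 per array and 2 to 112 features were saturated, none of them a member feature. An exact permutation test on 2 pools against 2 has a smallest p of 0.333, and the tests therefore rest on the spread that limma pools over features.

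**Figure D1:**
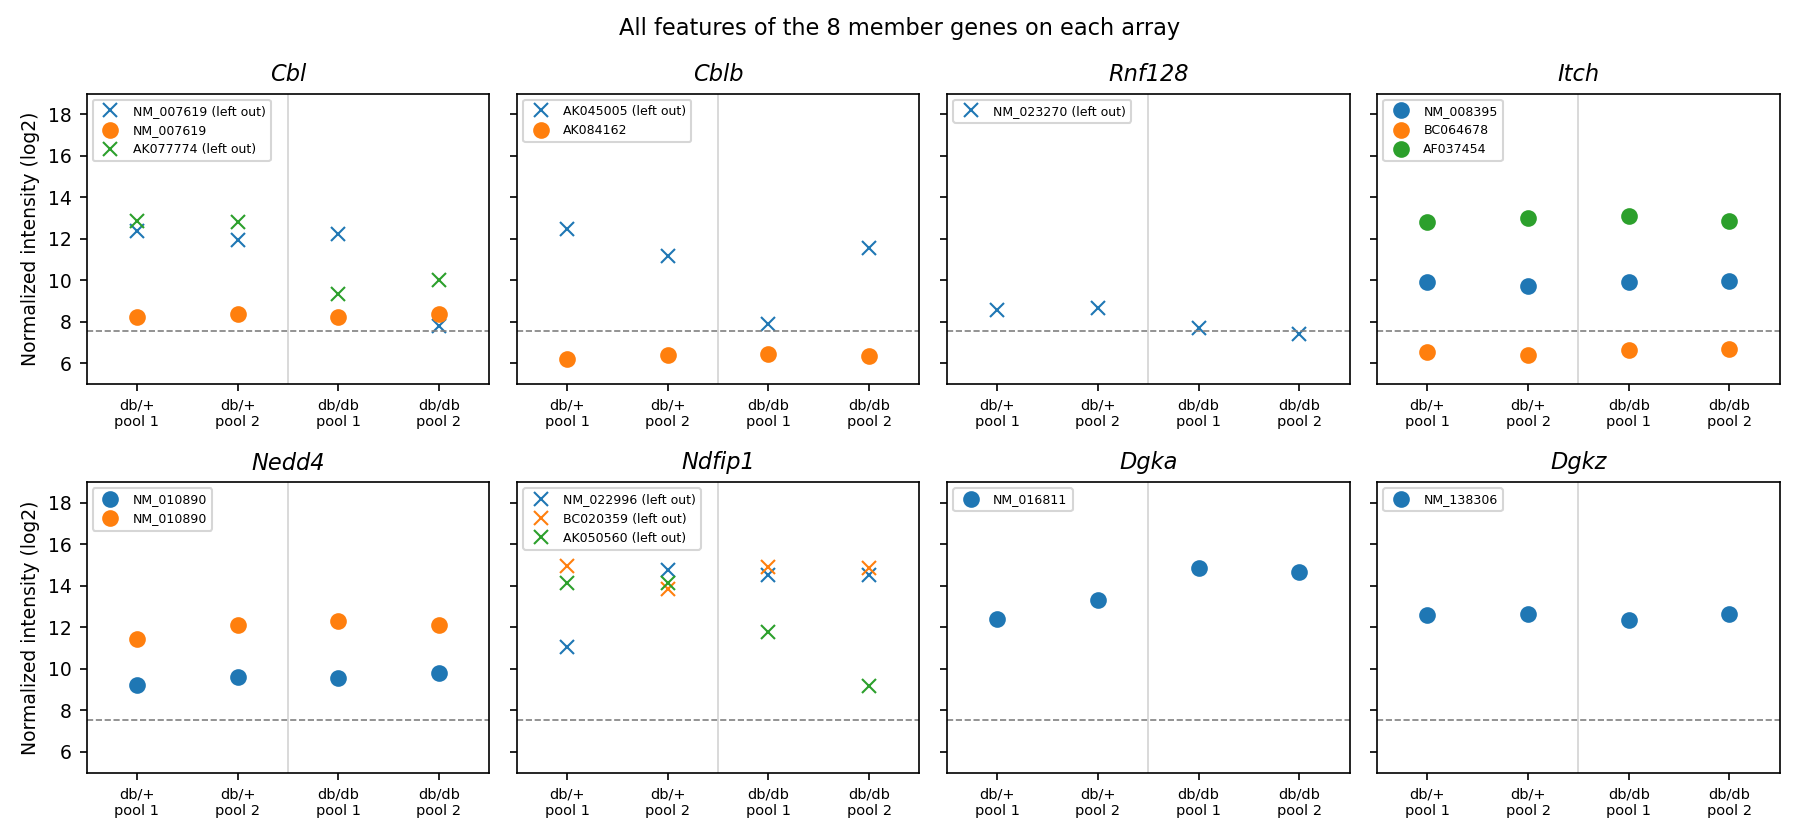
Normalized log2 intensity (vertical axis) of all 16 member features on the 4 arrays (horizontal axis), 1 panel per gene. Circles are features outside misread stretches, crosses are features inside them, and the dashed line is the background level of 7.55. Dgka sits at 12.39 and 13.31 in db/+ and at 14.87 and 14.67 in db/db, while the circles of the other genes differ by at most 0.43 between the group means.

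The diacylglycerol kinases were each measured by 1 feature. In db/+ Dgka read 12.39 in pool 1 and 13.31 in pool 2, and in db/db it read 14.87 in pool 1 and 14.67 in pool 2, from raw intensities of 7926, 9651, 20525 and 32031. Both db/db pools lay above both db/+ pools, and the db/+ pools differed from each other by more than the db/db pools did. The means were 12.85 ± 0.65 in db/+ and 14.77 ± 0.14 in db/db (SD, n = 2), a log2 difference of 1.92 with a standard error of 0.36 and a 95% interval of 0.84 to 2.99.

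The Dgka difference missed the threshold over all gene features (limma, adjusted p = 0.117). It passed once those stretches were dropped (adjusted p = 0.0414, 95% interval 1.06 to 2.77) and in the fit on gene means outside them (adjusted p = 0.0357), in which 10.4% of 16145 genes were called. In its scan line at most 1.13% of spots were off on any array. The Dgka spot was itself among those off on db/+ pool 1, where it departed by -2.27 log2 units from the middle of the other arrays. Without db/+ pool 1 the log2 difference was 1.46 and without db/+ pool 2 it was 2.37, and the call was lost whichever array was left out. No gene feature of the array passed in these fits (limma), with or without misread stretches, in which 4208 to 7565 had an unadjusted p below 0.05. By size of difference Dgka ranked 103 among 9048 genes above background with a feature outside misread stretches.

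Dgkz, the other kinase with a known role in anergy, read 12.59 and 12.65 in db/+ and 12.38 and 12.63 in db/db. The groups overlapped, and the log2 difference was -0.12 (95% interval -0.49 to 0.26; limma, adjusted p = 0.676). The difference between the responses of Dgka and Dgkz was not itself tested.

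**Figure D2:**
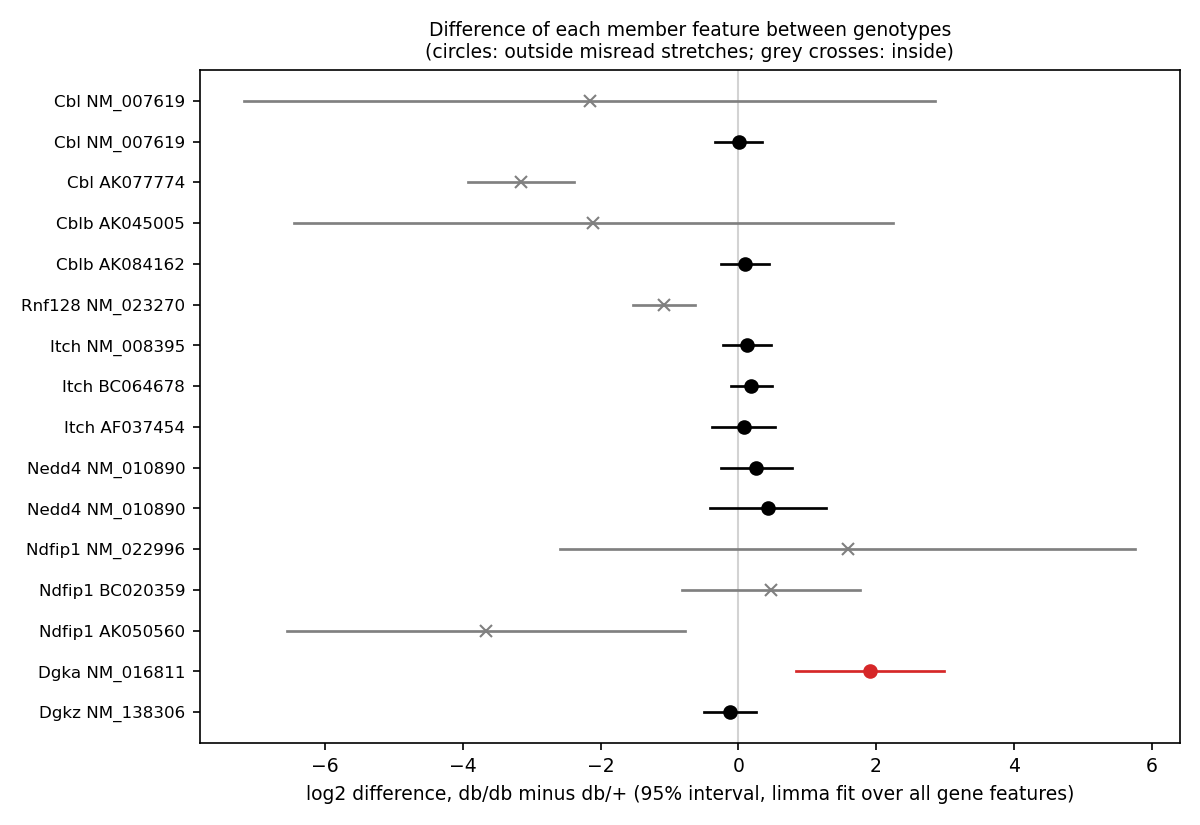
log2 difference between db/db and db/+ (horizontal axis) of each member feature, labelled by gene and transcript, with the 95% interval from the limma fit over all gene features. Circles lie outside misread stretches and grey crosses inside them. The Dgka interval runs from 0.84 to 2.99, and the other circles all have intervals that include 0.

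In these bulk samples fewer cells of a type and less RNA per cell cannot be told apart. The mean log2 level of 7 T cell identity genes was 12.42 and 12.77 in db/+ and 13.12 and 13.20 in db/db. Of these Cd3e, at 10.43 to 11.95, and Cd4, at 9.67 to 9.99, were above background in all pools. Cd8a, which marks T cells outside the purified CD4+ subset, read 11.54 and 11.99 in db/+ and 13.32 and 13.27 in db/db. Mean levels of several marker lists of other cells were higher in both db/db pools, as for Dgka, but not every marker was. The mean log2 level of 9 neutrophil markers was 8.66 and 9.49 in db/+ and 10.89 and 10.97 in db/db, with Cxcr2 at background. For Mpo the log2 difference was -0.86, and the groups overlapped for Mpo, Retnlg and Cxcr2. Of the 9, 3 were called higher over all gene features and 5 with misread stretches left out. Over 16145 genes, each given by its brightest feature outside these stretches, the shares called higher were 0.675% and 7.49%. The 9 B cell markers went from 9.12 and 9.45 to 10.12 and 9.97, with Pax5 and Blk at background. The groups did not overlap in 6 of the 9, against 55.1% of gene features outside misread stretches and 65.9% of those above background. Called higher were 2 over all gene features and 4 with misread stretches left out. The 4 macrophage markers went from 8.92 and 9.56 to 10.80 and 10.79, with C1qb at background and 0 and 2 called higher in those fits. The 4 CD8 T cell markers went from 11.48 and 11.88 to 12.43 and 12.42, all above background, with 0 and 2 called higher. The lists for regulatory T, NK and erythroid cells had median log2 differences of -0.12, 0.02 and -0.11. Of their genes only Il2ra, in the regulatory T list, was called, as lower with misread stretches left out (limma, adjusted p = 0.0419). The mean log2 level of the erythroid list was 7.89 and 9.60 in db/+ and 8.72 and 8.75 in db/db. The part of these cells in the Dgka difference was not tested. The Y-linked gene Kdm5d read 5.93 and 6.31 in db/+ and 12.16 and 12.20 in db/db, and Xist read 14.33 and 13.88 in db/+ and 10.06 and 6.60 in db/db. Genotype and the sex of the mice cannot be told apart.

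The promoter windows of both kinases are shown because Dgka was the member whose readable feature differed most and Dgkz is its partner in the same step. Sequences are from RefSeq on GRCm38.p6 and span 300 bases around an annotated start. Capitals mark GGAAA, the core of NFAT sites, or TTTCC, its reverse complement. For each gene the window with the most matches is shown. The window of Dgka lies at chr10:128745035-128745334 on the minus strand and that of Dgkz at chr2:91950299-91950598 on the minus strand.
Dgka: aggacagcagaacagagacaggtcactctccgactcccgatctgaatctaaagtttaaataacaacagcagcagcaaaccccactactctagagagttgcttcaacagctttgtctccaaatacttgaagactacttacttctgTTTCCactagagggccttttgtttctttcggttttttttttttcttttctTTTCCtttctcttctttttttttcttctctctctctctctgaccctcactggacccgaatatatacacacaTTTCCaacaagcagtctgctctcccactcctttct
Dgkz: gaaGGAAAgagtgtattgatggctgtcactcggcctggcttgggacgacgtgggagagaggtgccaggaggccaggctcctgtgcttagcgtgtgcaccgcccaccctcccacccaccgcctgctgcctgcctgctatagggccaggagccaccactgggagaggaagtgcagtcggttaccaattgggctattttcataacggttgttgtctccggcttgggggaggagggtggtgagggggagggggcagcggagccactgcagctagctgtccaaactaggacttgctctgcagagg
The Dgka window held 3 matches and the Dgkz window 1, and 61.3% of 32851 promoter windows of this length held at least 1. The other 3 Dgka windows held 1, 0 and 2 matches and the other Dgkz window 0. The letters GTAAACA of FOXO factors, GCGNGGGCG of EGR factors and TGANTCA of AP-1 were searched in the same way, on both strands and with overlaps allowed. None of the 4 Dgka windows or the 2 Dgkz windows in the table held any of these 3. They occur in 3.65%, 5.55% and 7.81% of windows. Among the other members, the Cbl window held 2 EGR matches, 1 of the 2 Nedd4 windows held 1 EGR match and the other 1 AP-1 match, and the windows of Cblb and Rnf128 held none of the 3. Itch had no entry, and windows of Ndfip1 were left out of this search.

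Among the HECT ligases, Itch was measured by 3 features. The brightest, of transcript AF037454, read 12.80 and 13.02 in db/+ and 13.12 and 12.85 in db/db. Its groups overlapped, with a log2 difference of 0.08 (95% interval -0.38 to 0.53; limma, adjusted p = 0.828). The NM_008395 feature read 9.93 and 9.72 in db/+ and 9.92 and 9.98 in db/db, a difference of 0.12 (95% interval -0.22 to 0.47). The BC064678 feature stayed at background between 6.42 and 6.72 in all pools. Averaged over the 3 features, the Itch difference was 0.13 (95% interval -0.09 to 0.35; limma on gene means, adjusted p = 0.420).

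Nedd4 had 2 features of the same transcript. The brighter read 11.42 and 12.12 in db/+ and 12.29 and 12.11 in db/db, so that db/+ pool 1 alone was lower. The dimmer read 9.25 and 9.60 in db/+ and 9.58 and 9.79 in db/db, again with db/+ pool 1 lowest. Their log2 differences were 0.43 and 0.26, and the mean of both features differed by 0.35 (95% interval -0.16 to 0.85; limma on gene means, adjusted p = 0.348). The difference of the brighter feature rested on the db/+ pools, since it was 0.0824 without db/+ pool 1 and 0.778 without db/+ pool 2.

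The RING ligases were largely in misread stretches. The Cbl feature outside them read 8.24 and 8.40 in db/+ and 8.25 and 8.39 in db/db, a log2 difference of 0.00 (95% interval -0.33 to 0.34; limma, adjusted p = 0.990). A second feature of the same transcript read 12.40 and 11.93 in db/+ and 12.23 in db/db pool 1, but 7.78 in db/db pool 2. On that array 29.7% of spots of its scan line were off, against at most 0.752% on the other arrays. Over all 4 arrays its log2 difference was -2.16 (95% interval -7.17 to 2.86; limma, adjusted p = 0.562), and over the 3 arrays whose line was not off it was 0.07, a value with no test.

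The third Cbl feature, of transcript AK077774, read 12.84 and 12.82 in db/+ and 9.35 and 10.00 in db/db, a log2 difference of -3.16 (95% interval -3.93 to -2.39). It missed the threshold over all gene features (limma, adjusted p = 0.0513). In its scan line between 30.5% and 34.2% of spots were off on every array. Over the spots of the line, db/db pool 2 correlated with db/+ pool 1 at r = 0.538 spot by spot and at r = 0.744 when each spot was set against the next spot along. For db/db pool 1, on which the feature read lowest, the values were r = 0.886 and r = 0.247. The db/+ pools correlated at r = 0.996 spot by spot. Lines that held the member features outside misread stretches correlated at r = 0.969 to 0.997 with db/+ pool 1. These correlations are over spots of a line and describe the arrays only. Over all 4 arrays the 3 Cbl features thus gave log2 differences of 0.00, -2.16 and -3.16, none of which passed over all gene features.

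Cblb had 1 feature at background, between 6.22 and 6.48 in all pools, which gives no information on the transcript. Its other feature read 12.50 and 11.16 in db/+ and 7.91 and 11.54 in db/db. db/db pool 1, the low array, had 28.9% of the line's spots off. The log2 difference was -2.10 over all 4 arrays (limma, adjusted p = 0.525) and -0.29 over the other 3, smaller than the gap of 1.34 between the db/+ pools.

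Rnf128 was measured by 1 feature, which read 8.59 and 8.70 in db/+ and 7.72 and 7.41 in db/db. Both db/db pools were lower, and they lay close to the background level of 7.55. The log2 difference was -1.08 (standard error 0.15; limma, adjusted p = 0.0838), a 2.11-fold lower level. Its scan line had 17.7% to 20.7% of spots off on every array, and on no array did the feature itself depart by over 2 log2 units. Over the spots of that line the db/+ pools correlated at r = 0.984. With db/+ pool 1, db/db pool 1 correlated at r = 0.949 and db/db pool 2 at r = 0.915. When stretches were judged misread only by differences within a genotype, this line was kept. Under that rule 8.13% of 26735 features were called, among them Rnf128 (limma, adjusted p = 0.0299), the third Cbl feature (adjusted p = 0.0130) and Dgka (adjusted p = 0.0442). That rule cannot see a line that departs alike on both arrays of a genotype.

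The adaptor Ndfip1 had 3 features, all in misread stretches. The feature of NM_022996 read 11.06 and 14.78 in db/+ and 14.52 and 14.50 in db/db, with 10.2% of the line off on db/+ pool 1. That of BC020359 read 14.98 and 13.85 in db/+ and 14.91 and 14.86 in db/db, with db/+ pool 2 low. That of AK050560 read 14.15 and 14.14 in db/+ and 11.77 and 9.20 in db/db, with 10.2% and 31.6% of its line off on the db/db arrays. Over all 4 arrays the log2 differences were 1.59, 0.48 and -3.66 (limma, adjusted p = 0.602, 0.612 and 0.187), so that the features disagreed in sign. Over the 3 arrays whose line was not off, the first feature differed by -0.27, with no test. The line of the second was below the limit of 5% on every array, and the feature was left out for the run of spots around it. The line of the third was off on all arrays by the rule, although over its spots the db/+ pools correlated at r = 0.995. With db/+ pool 1, db/db pool 1 correlated at r = 0.955 and db/db pool 2 at r = 0.854.

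**Figure D3:**
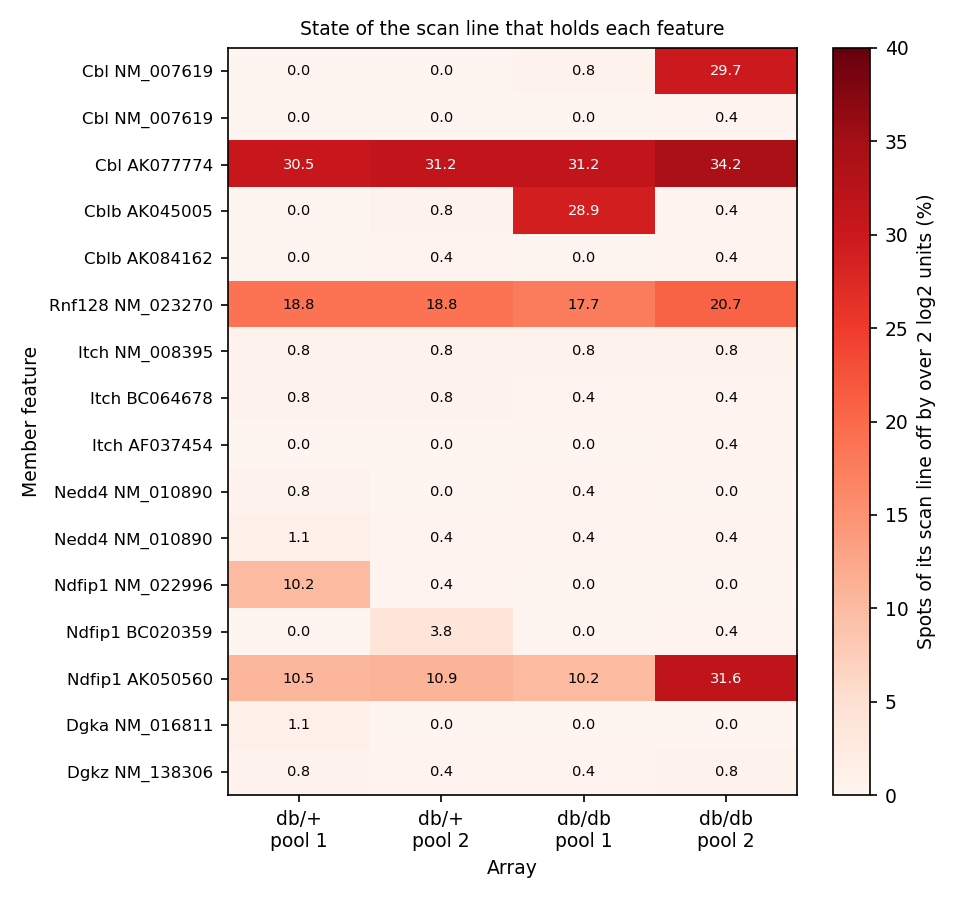
Percent of spots off, as defined in the text, in the scan line that holds each member feature, by feature (vertical axis) and array (horizontal axis). The lines of the third Cbl feature, Rnf128 and the third Ndfip1 feature were off on all 4 arrays, and the Dgka line on none, with 1.1% at most. Spots that split by genotype count as off on all 4 arrays, so the percentages do not tell which arrays were misread.

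Over the 16 member features none passed the all-feature limma test, against 0.997% of all gene features, and 4 had an unadjusted p below 0.05, against 19.5% of all gene features. With misread stretches left out, 1 of 9 was called, against 8.20% of all features in that fit, so that the members' share was near the general one. The groups did not overlap in 5 of the 16 features, against 53.2% of all gene features. Outside misread stretches they did not overlap in 2 of 9, Dgka and the Itch feature at background, against 55.1%, and above background in 1 of 7, against 65.9%. Among the 6 members with a gene mean outside misread stretches, 1 was called, against 10.4% of all genes in that limma fit. The called member, Dgka, also had the only unadjusted p below 0.05, against 26.7% of all genes. The Cblb mean rests on its feature at background. The median log2 difference over the 9 features was 0.12, beside 0.04 over all 25467.

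By the distance between centred log2 values over the 4 arrays, the genes with the pattern most like Dgka were Dscc1, Aunip and Tcf4, at distances of 0.133, 0.155 and 0.165 log2 units. Of 16144 genes compared, 99 lay within 0.5 of Dgka. The same measure placed 11529 genes within 0.5 of the Cblb feature at background, so that its nearest genes, Srp19, Hrh2 and Inpp4a, are hardly set apart from the rest. Rnf128 had no feature to compare.

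Other genes of the pathway were taken from lists and are given by the brightest feature outside misread stretches. With these stretches left out 7.49% of 16145 genes were called higher and 1.57% lower in db/db, and over all gene features 0.675% and 0.0186%. The median log2 difference over these genes was 0.05. Of the other diacylglycerol kinases, 5 had such a feature and none was called in either fit, with a median difference of 0.26. Dgke read 9.86 and 10.37 in db/+ and 10.60 and 10.59 in db/db. Dgkh differed by 0.33 and Dgkd by 0.26. None of the 3 passed the test (limma, adjusted p = 0.205 to 0.348 over all gene features).

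Among 17 genes that make or respond to diacylglycerol, 1 was called higher over all gene features and 3 with misread stretches left out, with none lower and a median log2 difference of 0.36. Plcg1, the phospholipase that makes diacylglycerol below the T cell receptor, rose from 12.53 and 12.65 in db/+ to 13.83 and 13.87 in db/db. Its log2 difference was 1.25 (limma, adjusted p = 0.0466, and 0.0156 with misread stretches left out), with both features called when those stretches were left out. Rasgrp1, the Ras exchange factor that binds diacylglycerol, read 12.82 and 13.18 in db/+ and 13.95 and 13.91 in db/db. It passed only with misread stretches left out (adjusted p = 0.104 and 0.0392), on 1 of its 2 features. Rasgrp4, an exchange factor known mainly from mast cells, rose from 7.90 and 7.95 to 8.85 and 8.86 by the second fit (adjusted p = 0.0565 and 0.0201). Prkcq, protein kinase C theta, read 13.79 and 13.11 in db/+ and 14.17 and 13.90 in db/db (adjusted p = 0.400 and 0.265).

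**Figure D4:**
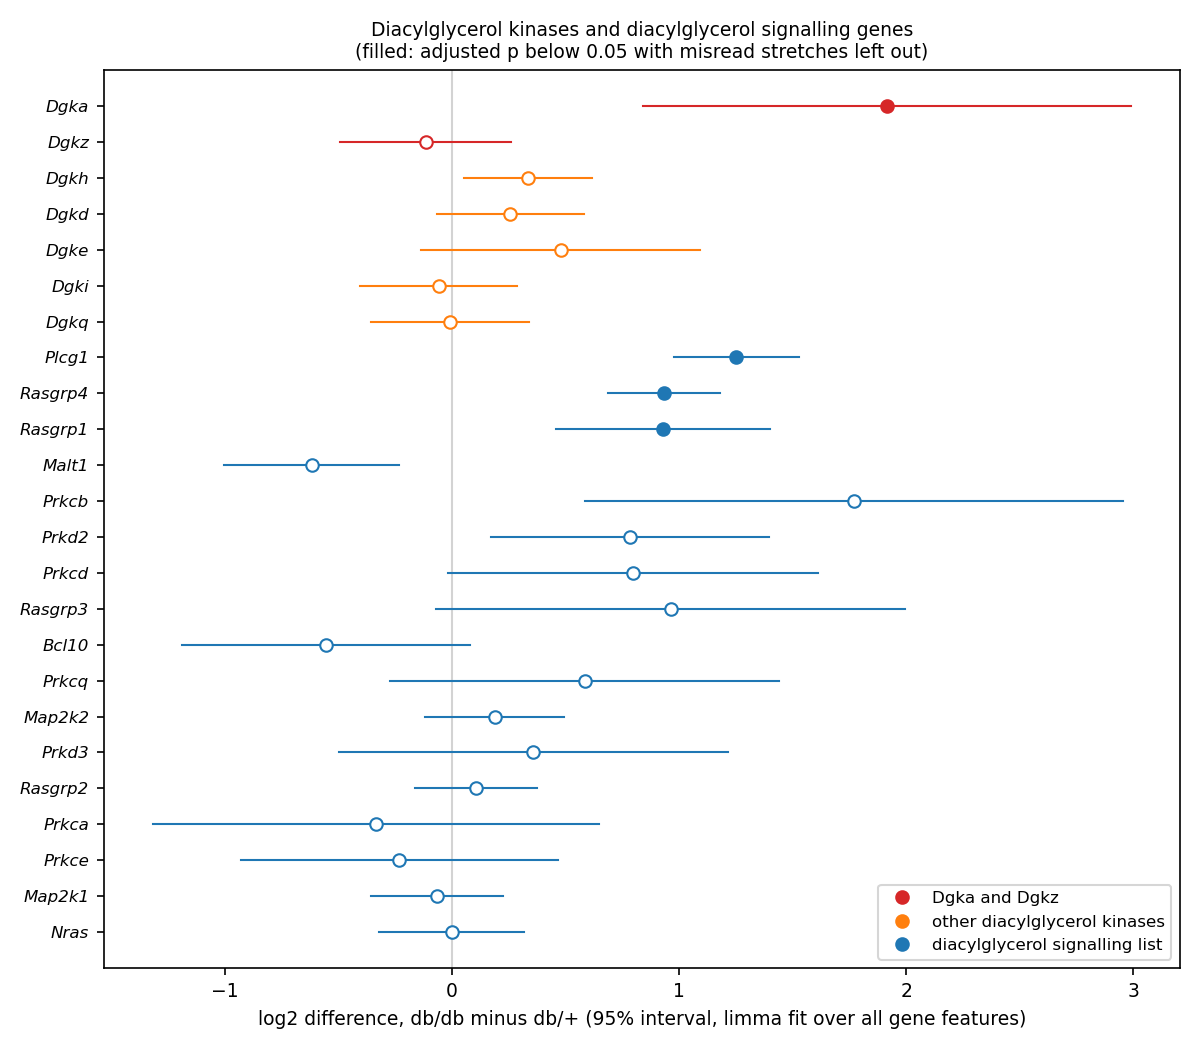
log2 difference between db/db and db/+ (horizontal axis) with the 95% interval for Dgka, Dgkz, 5 other diacylglycerol kinases and 17 diacylglycerol signalling genes, 1 gene per line. Filled circles passed the test with misread stretches left out. Dgka at 1.92 lies to the right of the other diacylglycerol kinases, which span -0.12 to 0.48. Of the signalling genes, Prkcb lies close to Dgka at 1.77 and did not pass.

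Of 18 reported substrates of the ligases, 2 were called higher over all gene features, and 4 higher and 2 lower with misread stretches left out (median -0.05). Beside Plcg1 these were Pik3r1, the regulatory subunit of phosphoinositide 3-kinase, which rose from 11.19 and 11.18 to 12.29 and 12.28 (limma, adjusted p = 0.0463 and 0.0156). Of 3 Pik3r1 features 1 passed. Jak1, a cytokine receptor kinase, was 2.05-fold higher (adjusted p = 0.0828 and 0.0288) and Syk 1.79-fold higher (0.0961 and 0.0366). Zap70, the kinase recruited to the T cell receptor, was 1.46-fold lower (0.101 and 0.0476). Cd40lg, the ligand of CD40, was the other gene called lower (0.103 and 0.0459), although it lay below the background level in all pools.

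Of 23 other ligases, adaptors and binding partners, none was called over all gene features and 1 was called higher with misread stretches left out (median 0.17). This was Smurf1, a HECT ligase of the Nedd4 family, on both of its features (log2 difference 0.81 on the brighter; adjusted p = 0.101 and 0.0393). Ndfip2, the relative of Ndfip1, read 12.30 and 12.34 in db/+ and 12.51 and 12.61 in db/db (adjusted p = 0.297 and 0.231). Sh3kbp1, a Cbl-binding adaptor, differed by 0.67 (adjusted p = 0.148 and 0.0665) and Rnf167, a relative of Rnf128, by 0.58 (0.151 and 0.0719), with its 2 features in opposite directions.

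In the list of 29 transcription factors and markers of anergy, 1 gene was called lower over all gene features, and 3 lower and 1 higher with misread stretches left out (median 0.28). Il2, the growth factor whose loss defines anergy, fell from 14.77 and 14.67 to 12.39 and 12.76 (adjusted p = 0.0486 and 0.0148). Nfatc1, a factor of the calcium branch, was 1.98-fold lower (0.0785 and 0.0281), on 1 of its 2 features. Gfi1, a transcriptional repressor, was 1.95-fold lower (0.0716 and 0.0248). Foxo3 was 1.47-fold higher on 1 of its 2 features (0.0955 and 0.0434). The factors tied to transcription of the anergy ligases did not move together. Egr2 differed by -0.80 (0.248 and 0.129), Egr3 by 0.44 (0.135 and 0.0739) and Nfatc2 by 0.30 (0.293 and 0.204), and features of each gene disagreed in sign. Of 10 Egr2 features outside misread stretches, 1 passed with these stretches left out. Foxp3, the factor of regulatory T cells, read 11.00 and 9.75 in db/+ and 11.18 and 11.05 in db/db (adjusted p = 0.503 and 0.381).

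The Dgka value was set against other ways of processing. Both db/db pools lay above both db/+ pools, so leaving out an array could not turn the sign for Dgka. Fits that changed only the set of features, or added a term for the replicate number, left its log2 difference at 1.92. Its log2 difference lay between 1.46 and 2.37 under 18 alternatives, and it was above 0 in all of them. It passed the threshold in 4, each of which left out misread stretches, and its adjusted p was at most 0.290.

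**Figure D5:**
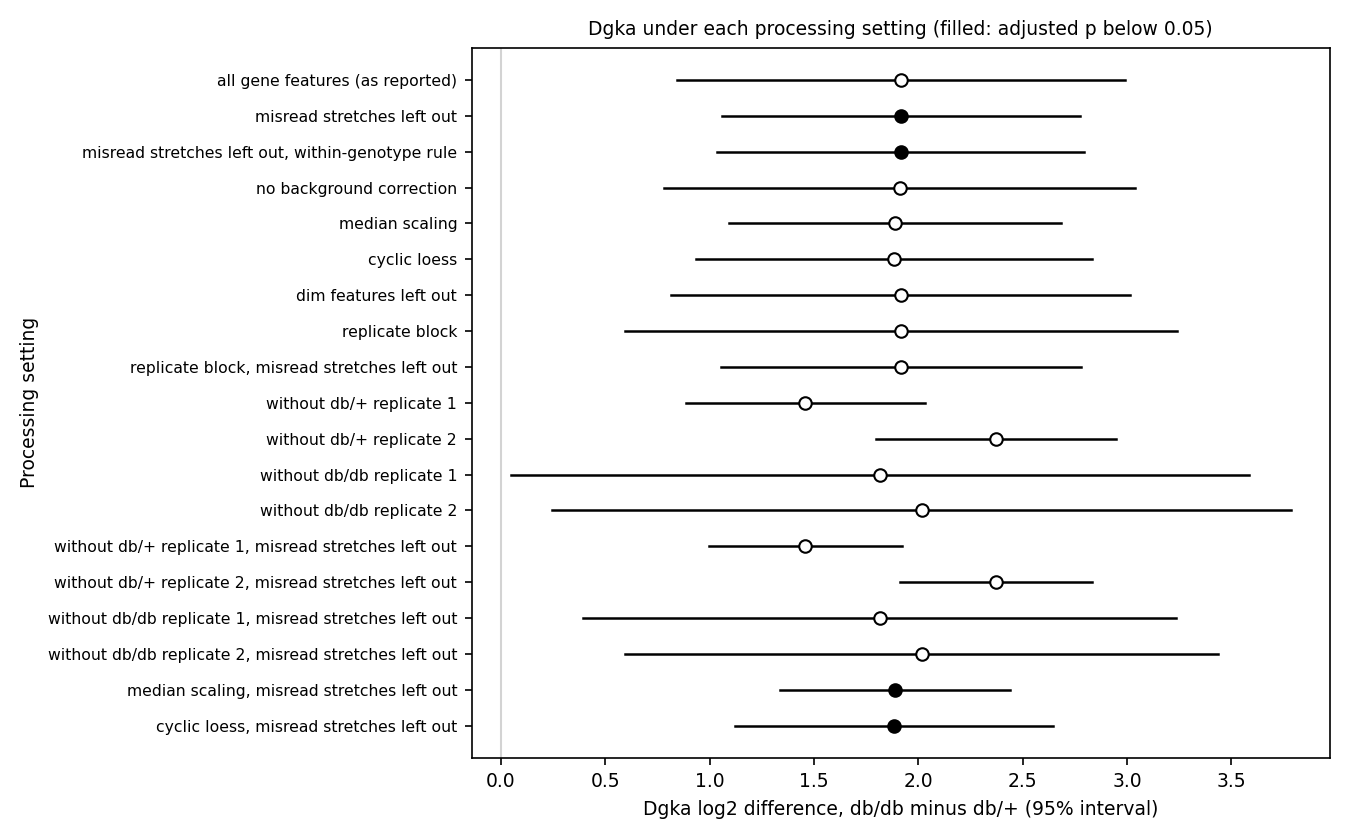
Dgka log2 difference between db/db and db/+ (horizontal axis) with its 95% interval under the reported fit and 18 alternatives (vertical axis). Filled circles have an adjusted p below 0.05. All values lie between 1.46 and 2.37, and the intervals are widest where a db/db array was left out.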

How the data were processed

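The deposited raw table holds the median foreground intensity of each of 45220 features on a linear scale, per the file headers. The deposited log2 values of the authors matched quantile-normalized log2 raw intensities to within 5.00e-09, and the submitters' processing notes name limma. Using limma 3.58.1 under R 4.3.3, raw values were corrected by normexp with an offset of 50, log2 transformed, quantile normalized and tested per feature with Benjamini-Hochberg adjustment over 33709 gene features. Further fits left out misread stretches, per feature and on gene means. The stretches were not removed before normalization.

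Row numbers were turned into annotated features by a layout inferred from the data. Under it, 2293 features of 218 transcripts had a median absolute deviation of 0.138 log2 units within a transcript, against 1.10 with row numbers taken as feature numbers, and every gene name rests on it. The members, lists and misread rule were chosen with earlier results of these data known. All member features were named, and up to 3 genes above background per pathway list with the smallest p. Of such genes in the marker and sex-linked lists, only Cd3e, Cd8a, Il2ra and Kdm5d were named. Named whatever their values were Egr2, Egr3, Nfatc1, Nfatc2, Plcg1, Prkcq, Rasgrp1, Ndfip2, Dgkd, Il2, Cd3e, Cd4, Cd8a and Foxp3. Syk, Zap70, Cd40lg, Foxo3, Xist, Mpo, Retnlg, Prkcb and markers at background were named after their values were seen. Of 198 list entries 177 had a feature, and the other 21 were not analysed here. The series design states 2 independent experiments, but the labels do not tie pools to them, so p-values measure the spread between these pools. The fit per feature was tested on simulated data.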

Additional observations from a re-analysis of the deposited data

How the results depend on the processing

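Dgka kept its sign in all 18 alternatives of the feature fit. Only those that changed the background correction or the scaling could have turned it. Dgka passed with misread stretches left out (limma, adjusted p = 0.0414), under the within-genotype rule (0.0442), and with those stretches left out under median scaling (3.46e-09) and cyclic loess (0.0388). In that median scaling fit the member intervals had the same width, such as -0.67 to 0.43 for Cbl and 1.34 to 2.44 for Dgka. The spread of Dgka itself therefore did not enter its p in that fit. The combinations of scaling or a left-out array with left-out stretches were chosen after seeing the data. Rnf128 kept its sign in 10 of 10, but its groups did not overlap, so leaving out an array could not turn it. For Rnf128 too, only another background correction or scaling could have turned the sign. Called gene features numbered 336, and 2089 with misread stretches left out, 2173 under the within-genotype rule, 149 under cyclic loess, 196 with dim features left out, 1922 under median scaling and 1697 under cyclic loess with those stretches left out. Called member features numbered 0, and 1 with misread stretches left out under each scaling (Dgka), 3 under the within-genotype rule, and 1 under median scaling alone (the third Cbl feature, -3.34, adjusted p = 0.0219). Called pathway genes numbered 3, and 13 under either misread rule, 11 under median scaling or cyclic loess with stretches left out, and 0 under median scaling, cyclic loess or dim features left out (limma; 19, 27 and 27 with an unadjusted p below 0.05). By gene means 1 member was called, 3 under the within-genotype rule, 0 with no background correction and 0 with all features of a gene averaged. With an array left out, the counts of gene features, pathway genes and member genes were all 0. The signs of small uncalled differences turned. Each gene is given here by its brightest feature outside misread stretches, and Ndfip1, which had none outside, by its second feature. For Cbl the log2 difference was -0.12 under median scaling, -0.13 under cyclic loess, and -0.0762 to 0.0836 (with -0.0654 without db/db pool 2) with an array left out. For Itch it was -0.0554 under median scaling, -0.0492 under cyclic loess, and -0.0582 to 0.211 (with -0.0330 without db/+ pool 1) with an array left out. For Ndfip1 the range with an array left out was -0.0883 to 1.04, and for Dgkz it was -0.24 to 0.0108. For Nedd4 it was 0.0824 to 0.778. The cause was not tested. With the replicate block, 0 gene features, 0 pathway genes and 0 member genes were called (limma; 5146 features with an unadjusted p below 0.05), and the Dgka adjusted p was 0.264. With the block and misread stretches left out, 445 gene features (398 higher, 47 lower), 3 pathway genes and 0 member features were called, and the Dgka adjusted p was 0.0696. Deviations of same-numbered pools correlated at r = -0.03 over features. That value cannot tell whether same-numbered pools came from the same experiment.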
